A study of Mus musculus with 2 samples.

Results

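The Cyp2 genes encode the largest family of cytochrome P450 enzymes in the mouse. A list of 36 members was described here, which leaves out Cyp2e1 and other genes of the family such as Cyp2c23. Of these members 34 had a row among the 20823 genes of the deposited count table, matched by Ensembl identifier and grouped into the subfamilies 2a, 2b, 2c, 2d, 2f, 2j and other. Cyp2s1 had no row, and the table held no row at 0 in both libraries. Cyp2d13 was paired with no Ensembl identifier in the symbol table and was not analysed here. The series held 2 mRNA-seq libraries of mouse hepatocytes, 1 per group: an APAP library from C57BL6J mice 24 h after 300 mg/kg acetaminophen (APAP) given intraperitoneally, and a control library from C57BL6J mice that received no agent. In both groups the mice were 8 weeks old, livers were digested by collagenase perfusion, cells positive for CD31 (endothelial) or CD45 (immune) were removed by flow sorting, and 20000 hepatocytes with high surface Cxcr2 were collected. How many animals stand behind each library is not stated in the labels.

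Cytochrome P450 enzymes of this family are haem proteins of the endoplasmic reticulum that add oxygen to drugs, steroids, fatty acids and bile acids, with electrons delivered by P450 oxidoreductase. In the liver many are made mostly by hepatocytes around the central vein, among them Cyp2e1, Cyp2c29, Cyp2c37 and Cyp2a5, whereas Cyp2f2 is a classical gene of hepatocytes around the portal vein. The genes lie in tandem clusters of close copies, so that neighbouring genes can have nearly the same sequence. APAP is itself a substrate of this family: Cyp2e1 and other P450 enzymes turn it into the reactive product that damages pericentral hepatocytes.

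Library totals were 51009898 counts for APAP and 52419864 for control. Levels are given as CPM, counts per 1000000 of a library total corrected by the trimmed mean of M-values (TMM), so that 1 count was worth 0.0174 CPM in APAP and 0.0215 CPM in control. Ratios are APAP over control, and each has an exact 95% interval that covers counting error only. Since each group was a single library, nothing could be checked against replicates, no p-value is given, and every difference is one between these libraries. Hepatocyte markers far exceeded the listed markers of other cells in both libraries, with summed levels of 66955 CPM in APAP and 48800 CPM in control for 5 of 6 listed genes. The labels did not give the sex of the mice. The Y-linked genes Ddx3y, Uty, Kdm5d and Eif2s3y had 500 to 2219 counts each in the APAP library and 496 to 3019 in the control library, and Xist had 4 counts in APAP and 0 in control.

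As a family the Cyp2 transcripts were lower in the APAP library, but by very different amounts from gene to gene. Together the 34 members summed to 5107 CPM with APAP and 10231 CPM without it, a sum 2.003-fold lower (1.99 to 2.01), or 0.576% of all counts in APAP and 0.908% in control. A comparison needed a minimum of 20 counts over both libraries, which 32 members reached. By a rule of 2-fold or more with an interval that excluded 1, 12 of them were lower in APAP, 1 was higher and 19 were neither. Among all 14096 genes with that many counts, 7.09% were lower by this rule and 10.7% were higher. The median log2 ratio was -0.68 over the 32 members and 0.02 over all genes with at least 20 counts. With scaling by total counts alone every log2 ratio moved up by 0.35, and then the rule gave 10 lower and 2 higher members, against 4.44% and 17.3% of all genes. Cyp2c38 and Cyp2d34 no longer met the rule with that scaling, and Cyp2b10 then met it as higher. With a limit of 1.5-fold in the main scaling, 19 members were lower and 3 higher (13.1% and 17.6% of all genes), and with a limit of 3-fold, 9 were lower and 0 higher (3.56% and 6.07% of all genes). In pooled cells, fewer cells that make a transcript and less of it per cell cannot be told apart.

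**Figure D1:**
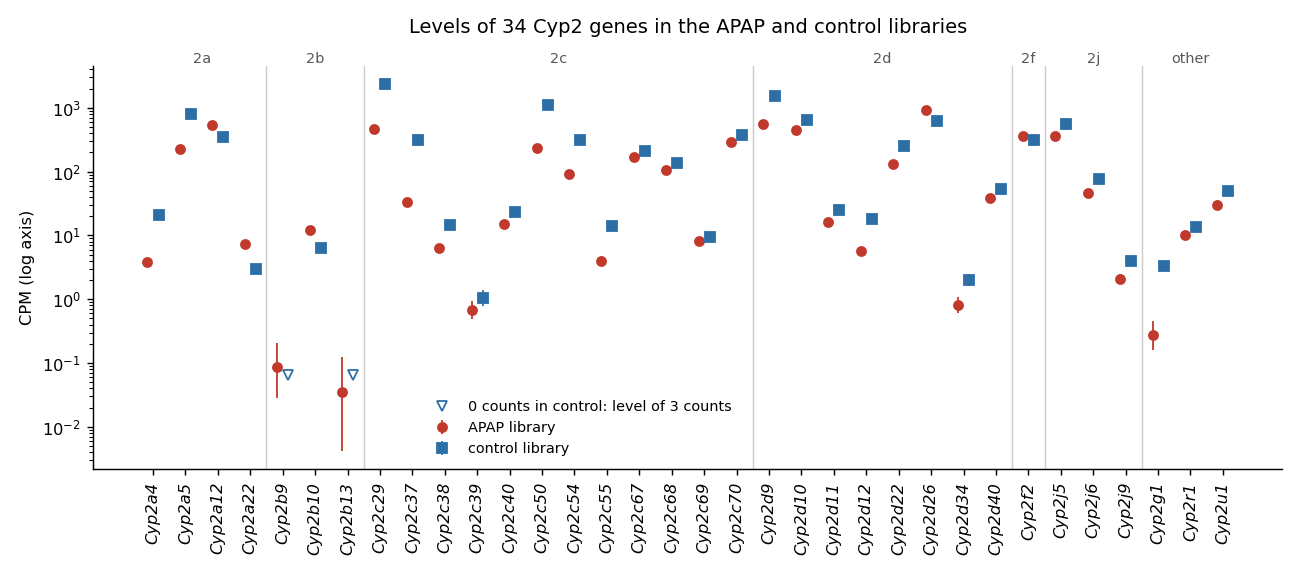
Level of each Cyp2 gene in CPM on a log axis, with circles for the APAP library, squares for the control library, exact 95% Poisson intervals as bars, and open triangles at the level of 3 counts where the control library had 0. The widest gaps between the libraries are those of Cyp2g1 and Cyp2c37, and Cyp2a12, Cyp2a22, Cyp2b10, Cyp2d26 and Cyp2f2 lie higher in the APAP library.

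The order of the most abundant members differed between the libraries. Per kilobase of transcript, Cyp2d26 ranked first in the APAP library at 539 CPM per kb, followed by Cyp2d9 at 322, Cyp2a12 at 316, Cyp2d10 at 269 and Cyp2c29 at 263 CPM per kb. In the control library Cyp2c29 ranked first at 1315 CPM per kb, followed by Cyp2d9 at 907, Cyp2c50 at 604, Cyp2a5 at 401 and Cyp2d10 at 393 CPM per kb. Cyp2c29, an epoxygenase of arachidonic acid, thus held rank 5 in APAP and rank 1 in control. Cyp2a12, a steroid hydroxylase gene, held rank 3 in APAP and rank 9 in control, and Cyp2f2 rank 6 in APAP and rank 12 in control. The share of each gene within the Cyp2 counts does not depend on how libraries are scaled. Cyp2d26 took 17.9% of the counts of all members in APAP and 6.12% in control, whereas Cyp2c29 took 9.17% in APAP and 22.9% in control.

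**Figure D2:**
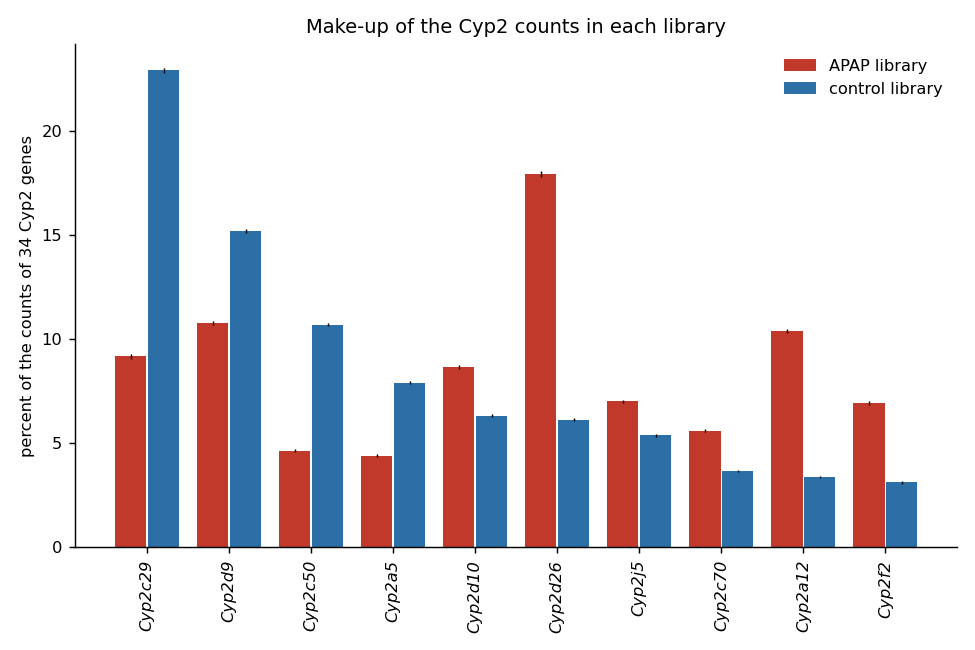
Percent of all counts of the 34 Cyp2 genes held by each gene that reached 4% in either library, APAP bars left and control bars right, with exact binomial 95% intervals. Cyp2d26 holds the highest APAP bar at 17.9% and Cyp2c29 the highest control bar at 22.9%.

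The Cyp2c subfamily, whose enzymes mainly convert arachidonic acid, linoleic acid and many drugs, was the most reduced. Its 12 genes summed to 1427 CPM in APAP and 4862 CPM in control, 3.41-fold lower (3.38 to 3.43). They fell into genes that were several-fold lower and genes that differed little: 6 were at least 2-fold lower, 6 met neither rule, and 0 were higher. Among all genes 7.09% were lower and 10.7% higher by this rule. Cyp2c29 (ENSMUSG00000003053) had 26924 counts and 468 CPM in APAP, against 109012 counts and 2344 CPM in control, 5.01-fold lower (4.94 to 5.07). Cyp2c37 (ENSMUSG00000042248), whose enzyme hydroxylates arachidonic acid, had 1905 counts (33.1 CPM) in APAP and 14756 counts (317 CPM) in control. It was 9.58-fold lower (9.13 to 10.05), a larger factor than for any other member but the scarce Cyp2g1, and close to that of the excluded Cyp2e1, which was 8.92-fold lower (8.84 to 8.99). Cyp2c50 and Cyp2c54, which metabolise the same fatty acids, were 4.62-fold lower (4.53 to 4.71; 237 CPM in APAP and 1094 in control) and 3.51-fold lower (3.40 to 3.62; 90.5 CPM in APAP and 318 in control). Cyp2c55, better known from the colon, stood at 3.97 CPM in APAP and 13.9 CPM in control, 3.51-fold lower (3.01 to 4.10). Cyp2c38 was 2.35-fold lower (2.07 to 2.68), with 362 counts in APAP and 689 in control, and did not meet the rule when scaled by total counts.

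The other Cyp2c genes differed by less than 2-fold. Cyp2c70, which makes the muricholic acids typical of mouse bile, had 286 CPM in APAP and 375 CPM in control, 1.31-fold lower (1.28 to 1.34). Cyp2c67 and Cyp2c68 had 171 and 107 CPM in APAP and 213 and 138 CPM in control, 1.25-fold lower (1.21 to 1.28) and 1.29-fold lower (1.24 to 1.33). Cyp2c69 had 472 counts in APAP and 446 in control, a ratio of 0.856 (0.751 to 0.977), and the ratios of Cyp2c67 and Cyp2c69 lay above 1 when libraries were scaled by total counts. Cyp2c40 was 1.53-fold lower (1.40 to 1.67), at 15.3 CPM in APAP and 23.4 CPM in control. Cyp2c39, known for the hydroxylation of retinoic acid, had 39 counts in APAP and 49 in control, a ratio of 0.644 whose interval of 0.412 to 1.001 held 1, so that this depth showed no detectable difference.

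In their cluster on chromosome 19 the Cyp2c genes that met the 2-fold rule and those that did not stood largely in runs. Read along the chromosome among listed members only, Cyp2c55 and Cyp2c29 were at least 2-fold lower, as was Cyp2c38 beyond Cyp2c39. Next came the run of Cyp2c67, Cyp2c68, Cyp2c40 and Cyp2c69, of which none met the rule, then the run of Cyp2c37, Cyp2c54 and Cyp2c50, all lower by 3.51-fold to 9.58-fold, and last Cyp2c70. The coding sequences within each run were close, 96.1% identical for Cyp2c37 and Cyp2c50, 95.2% for Cyp2c50 and Cyp2c54, 97.1% for Cyp2c67 and Cyp2c68, and 92.2% for Cyp2c40 and Cyp2c67. Identity was taken over the longer sequence of a pair. The last value is lowered by unmatched length, with 1560 coding bases for Cyp2c40 and 1473 for Cyp2c67. Between the last runs the proportions differed: there were 1.39 counts of Cyp2c50 per count of Cyp2c67 in the APAP library and 5.15 in the control library, a 3.71-fold smaller proportion (3.58 to 3.83). For Cyp2c68 per count of Cyp2c67 the proportions were 0.630 in APAP and 0.651 in control, and the interval of their ratio, 0.925 to 1.01, held 1. The genes of that run share much sequence with each other, as given below, and the part of shared reads in this proportion was not tested. Members of a run differed too: Cyp2c37 was 9.58-fold lower and its neighbour Cyp2c54 3.51-fold lower, and Cyp2c37 per count of Cyp2c50 was 0.140 in APAP and 0.290 in control, 2.07-fold smaller (1.97 to 2.18). The 250 bases before the start of genes from both runs are shown because they let these neighbours be compared (RefSeq, build GRCm38.p6, another build than the mm39 of the counts). Capitals mark CAAAGTNCA, a core of sites for the liver factor HNF4, and the TATA box letters TATAAA, both searched on each strand.
Cyp2c37, chr19:39992174-39992423 on the plus strand: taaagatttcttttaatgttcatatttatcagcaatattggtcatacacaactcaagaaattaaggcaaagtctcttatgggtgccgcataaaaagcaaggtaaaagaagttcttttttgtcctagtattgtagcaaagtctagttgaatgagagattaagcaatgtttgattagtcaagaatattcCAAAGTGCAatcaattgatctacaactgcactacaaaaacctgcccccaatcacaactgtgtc
Cyp2c50, chr19:40089429-40089678 on the plus strand: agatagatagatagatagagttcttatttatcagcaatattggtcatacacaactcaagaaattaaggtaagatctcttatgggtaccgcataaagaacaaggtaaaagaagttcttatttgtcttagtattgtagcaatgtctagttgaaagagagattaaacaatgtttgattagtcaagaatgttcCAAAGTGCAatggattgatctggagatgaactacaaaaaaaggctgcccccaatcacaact
Cyp2c67, chr19:39649043-39649292 on the minus strand: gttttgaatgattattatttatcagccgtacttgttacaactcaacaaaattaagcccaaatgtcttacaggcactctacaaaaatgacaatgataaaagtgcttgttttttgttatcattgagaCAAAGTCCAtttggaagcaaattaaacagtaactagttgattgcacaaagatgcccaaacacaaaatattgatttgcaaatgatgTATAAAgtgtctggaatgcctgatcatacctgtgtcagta
Cyp2c68, chr19:39741102-39741351 on the minus strand: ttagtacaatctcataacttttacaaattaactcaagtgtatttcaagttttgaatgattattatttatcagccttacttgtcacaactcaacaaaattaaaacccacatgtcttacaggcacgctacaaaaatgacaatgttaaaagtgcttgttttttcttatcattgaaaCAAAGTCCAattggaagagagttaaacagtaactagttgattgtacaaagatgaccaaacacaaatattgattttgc

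Cyp2c37 and Cyp2c50, both several-fold lower, were 86.0% identical over these 250 bases and each held the HNF4-type letters as CAAAGTGCA, 63 and 61 bases before the start. Cyp2c67 and Cyp2c68, both within 1.29-fold, were 75.2% identical and held them as CAAAGTCCA, 125 and 77 bases before the start. Their windows are out of step, as the letters that open the Cyp2c67 window lie further into that of Cyp2c68. The Cyp2c68 window ends before the stretch that holds TATAAA in Cyp2c67. The identity of this pair and the distances of the site thus depend on where the starts were annotated. Promoters were given for 28 of the 34 members, and CAAAGTNCA occurred in 8 of them (28.6%), against 1.21% of 27025 mouse promoters of the same length. These were Cyp2c37, Cyp2c40, Cyp2c50, Cyp2c67, Cyp2c68, Cyp2c69, Cyp2c70 and Cyp2d26, which include members at least 2-fold lower, members within 2-fold and 1 with a ratio above 1. The form CAAAGTCCA was in 5 of the 28 (Cyp2c40, Cyp2c67, Cyp2c68, Cyp2c69 and Cyp2c70; 0.381% of all promoters) and CAAAGTGCA in 3 (Cyp2c37, Cyp2c50 and Cyp2d26; 0.226% of all promoters). TATAAA occurred in 15 of 28 members and 13.0% of all promoters, TTGCNNAA, a core of C/EBP sites, in 9 of 28 and 9.55%, and TGTTTAC, a core of FOXA sites, in 3 of 28 and 3.09%. The letters TTANGTAA, a core of the sites of Dbp and related clock output factors, were in Cyp2c38 alone of the 28 and in 2.11% of all promoters. A form of the HNF1 site, GTTAAT and ATTAA parted by any 1 base, was in 0 of 28 and in 0.0629% of all promoters. No matches overlapped in the members, which share ancestry and are not independent cases, and such a match shows letters and not binding.

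The Cyp2a subfamily split into a pair that was lower and a pair that was higher in the APAP library. Its 4 genes summed to 766 CPM in APAP and 1177 CPM in control, 1.54-fold lower (1.52 to 1.56), and that sum was set by Cyp2a5. Cyp2a5 (ENSMUSG00000005547), the coumarin hydroxylase of mouse liver, had 12874 counts (224 CPM) in APAP and 37578 counts (808 CPM) in control, 3.61-fold lower (3.54 to 3.68). Cyp2a4, a testosterone hydroxylase more abundant in female than in male liver, had 218 counts (3.79 CPM) in APAP and 962 counts (20.7 CPM) in control, 5.46-fold lower (4.70 to 6.35). Cyp2a12 (ENSMUSG00000060407) had 30513 counts (531 CPM) in APAP and 16043 counts (345 CPM) in control, a ratio of 1.54 (1.51 to 1.57) that met neither rule. Its close copy Cyp2a22 was the only member at least 2-fold higher, at 424 counts (7.37 CPM) in APAP and 140 counts (3.01 CPM) in control, a ratio of 2.45 (2.02 to 2.99). The balance of the main genes of both pairs was inverted: there were 0.422 counts of Cyp2a5 per count of Cyp2a12 in the APAP library and 2.34 in the control library, a 5.55-fold smaller proportion (5.40 to 5.71) that no scaling can alter. Summed without Cyp2a5, the subfamily had a log2 ratio of 0.56, above 0.

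Each pair is also a pair in sequence, and the promoters of all 4 genes are shown for that reason. Capitals mark TATAAA. The C/EBP letters TTGCNNAA, not set in capitals, were found 70 and 71 bases before the start of Cyp2a4 and Cyp2a5 and not in the windows of Cyp2a12 and Cyp2a22. The other members with these letters were Cyp2b9, Cyp2b10, Cyp2b13, Cyp2c37, Cyp2c67, Cyp2c69 and Cyp2j9. Among them were Cyp2c37, at least 2-fold lower, Cyp2c67, Cyp2c69 and Cyp2j9, within 2-fold, and Cyp2b10 with a ratio above 1.
Cyp2a4, chr7:26306942-26307191 on the plus strand: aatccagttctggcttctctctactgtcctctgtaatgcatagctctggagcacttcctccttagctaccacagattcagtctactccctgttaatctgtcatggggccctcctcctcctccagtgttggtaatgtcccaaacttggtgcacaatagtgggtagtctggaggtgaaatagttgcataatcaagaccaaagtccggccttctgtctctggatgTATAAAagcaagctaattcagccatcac
Cyp2a5, chr7:26835089-26835338 on the plus strand: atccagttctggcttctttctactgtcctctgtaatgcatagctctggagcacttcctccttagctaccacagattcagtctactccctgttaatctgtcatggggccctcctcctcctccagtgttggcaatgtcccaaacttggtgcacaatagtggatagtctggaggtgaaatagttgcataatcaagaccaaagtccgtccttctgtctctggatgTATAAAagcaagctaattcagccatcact
Cyp2a12, chr7:27028840-27029089 on the plus strand: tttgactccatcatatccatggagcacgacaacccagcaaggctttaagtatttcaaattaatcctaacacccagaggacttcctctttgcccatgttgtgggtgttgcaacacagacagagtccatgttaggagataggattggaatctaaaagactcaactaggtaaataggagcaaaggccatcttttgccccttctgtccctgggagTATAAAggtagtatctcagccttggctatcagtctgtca
Cyp2a22, chr7:26939387-26939636 on the minus strand: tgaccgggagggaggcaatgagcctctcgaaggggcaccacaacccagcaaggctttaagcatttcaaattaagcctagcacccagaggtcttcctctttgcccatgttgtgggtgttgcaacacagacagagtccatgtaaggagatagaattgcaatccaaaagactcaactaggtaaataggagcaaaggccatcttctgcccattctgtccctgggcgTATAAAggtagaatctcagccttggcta
The promoters of Cyp2a4 and Cyp2a5, both lower, were 98.0% identical, and those of Cyp2a12 and Cyp2a22, both with ratios above 1, were 86.4% identical. The coding sequences were 98.4% identical for Cyp2a4 and Cyp2a5 and 97.0% for Cyp2a12 and Cyp2a22. In the order of the chromosome 7 cluster, Cyp2a4, Cyp2g1 and Cyp2a5, all at least 2-fold lower, stood in 1 run of listed members, followed by Cyp2a22, Cyp2a12 and Cyp2f2, all with ratios above 1. Cyp2g1, a gene mainly of the olfactory mucosa, had only 16 counts (0.278 CPM) in APAP and 156 counts (3.35 CPM) in control, 12.1-fold lower (7.19 to 21.6). Cyp2f2, best known for the activation of naphthalene in the lung and a periportal gene in liver, had 355 CPM in APAP and 318 CPM in control, a ratio of 1.12 (1.09 to 1.14).

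**Figure D3:**
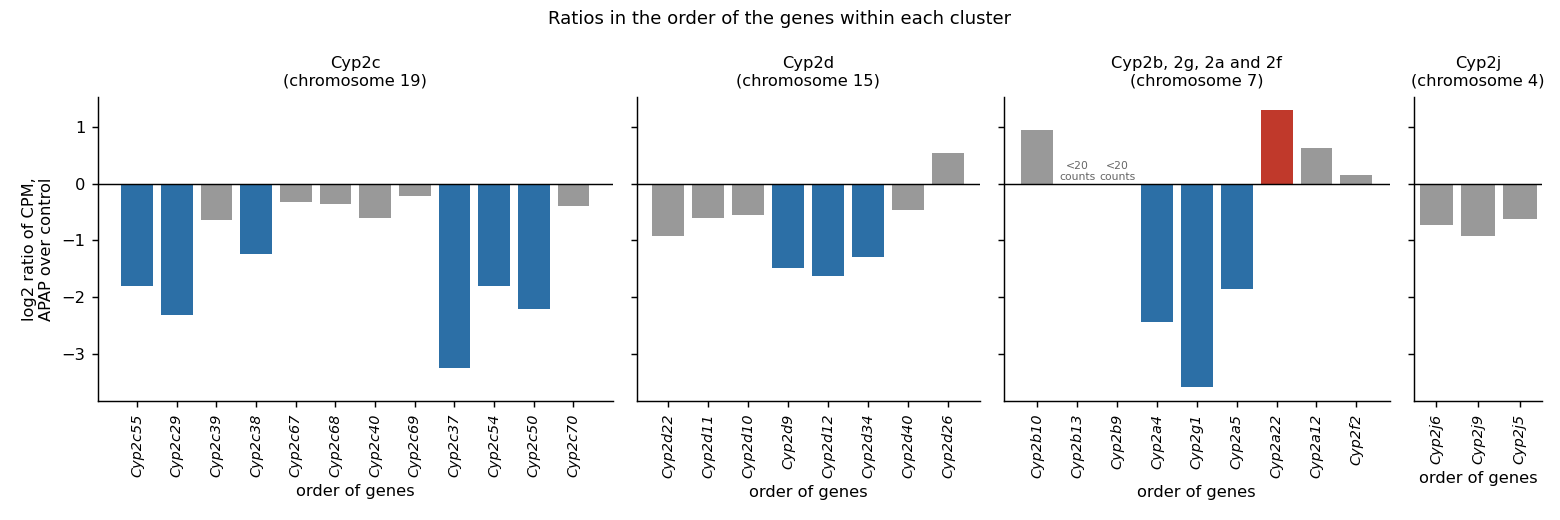
Log2 ratio of each member, APAP over control, in the order of the genes along chromosomes 19, 15, 7 and 4, leaving out the isolated Cyp2r1 and Cyp2u1. Blue bars mark genes at least 2-fold lower, the red bar the gene at least 2-fold higher and grey bars the rest. Blue bars stand together at Cyp2c37, Cyp2c54 and Cyp2c50, at Cyp2d9, Cyp2d12 and Cyp2d34, and at Cyp2a4, Cyp2g1 and Cyp2a5, whereas the grey Cyp2c39 stands between the blue Cyp2c29 and Cyp2c38.

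The Cyp2b genes, of which Cyp2b10 is the classical target of the receptor CAR and of phenobarbital, were low in both libraries. Cyp2b10 had 705 counts (12.3 CPM) in APAP and 297 counts (6.39 CPM) in control. Its ratio of 1.92 (1.67 to 2.21) stood just under the limit of 2-fold and passed it when libraries were scaled by total counts. Cyp2b9 and Cyp2b13, which are typical of female liver, had 5 and 2 counts in the APAP library and 0 each in the control library, both under the minimum of 20.

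The Cyp2d genes, drug and steroid hydroxylases, had the highest summed counts of any subfamily in the APAP library and stood next to Cyp2c in the control library. They summed to 2102 CPM in APAP and 3173 CPM in control, 1.51-fold lower (1.498 to 1.52). Of the 8 measured genes 3 were at least 2-fold lower and 5 met neither rule, against 7.09% lower and 10.7% higher among all genes. Cyp2d9 (ENSMUSG00000068086), a testosterone hydroxylase typical of male liver, had 31645 counts (550 CPM) in APAP and 72217 counts (1553 CPM) in control, 2.82-fold lower (2.78 to 2.86). Cyp2d26 (ENSMUSG00000022445) went the other way, with 52651 counts (916 CPM) in APAP and 29130 counts (626 CPM) in control, a ratio of 1.46 (1.44 to 1.48). Counts of Cyp2d9 per count of Cyp2d26 were 0.601 in APAP and 2.48 in control, a 4.12-fold smaller proportion (4.05 to 4.21). Cyp2d12 was 3.09-fold lower (2.72 to 3.52; 332 counts in APAP and 830 in control), and Cyp2d34 2.45-fold lower (1.70 to 3.55) from only 47 counts in APAP and 93 in control. Between these lay Cyp2d10 at 443 CPM in APAP and 647 CPM in control, 1.46-fold lower (1.44 to 1.48), and Cyp2d22 at 131 CPM in APAP and 248 CPM in control, 1.90-fold lower (1.84 to 1.96). Cyp2d11 was 1.51-fold lower (1.39 to 1.65) and Cyp2d40 1.38-fold lower (1.30 to 1.46). In the order of listed members on chromosome 15, Cyp2d9, Cyp2d12 and Cyp2d34 stood next to each other and were all at least 2-fold lower. Of these, Cyp2d34 did not meet the rule when libraries were scaled by total counts.

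The 3 Cyp2j genes were lower by like amounts. The Cyp2j genes, epoxygenases of arachidonic acid, summed to 405 CPM in APAP and 629 CPM in control, 1.55-fold lower (1.53 to 1.58), and none of the 3 met the 2-fold rule. Cyp2j5, the main liver gene among them, had 358 CPM in APAP and 549 CPM in control, 1.54-fold lower (1.51 to 1.57). Cyp2j6 was 1.66-fold lower (1.58 to 1.74) and Cyp2j9, better known from brain, 1.89-fold lower (1.49 to 2.39) at 120 counts in APAP and 183 in control. Cyp2u1, a fatty acid hydroxylase, had 29.7 CPM in APAP and 50.3 CPM in control, 1.69-fold lower (1.59 to 1.80). Cyp2r1, which hydroxylates vitamin D, had 10.2 CPM in APAP and 13.4 CPM in control, 1.31-fold lower (1.17 to 1.47).

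**Figure D4:**
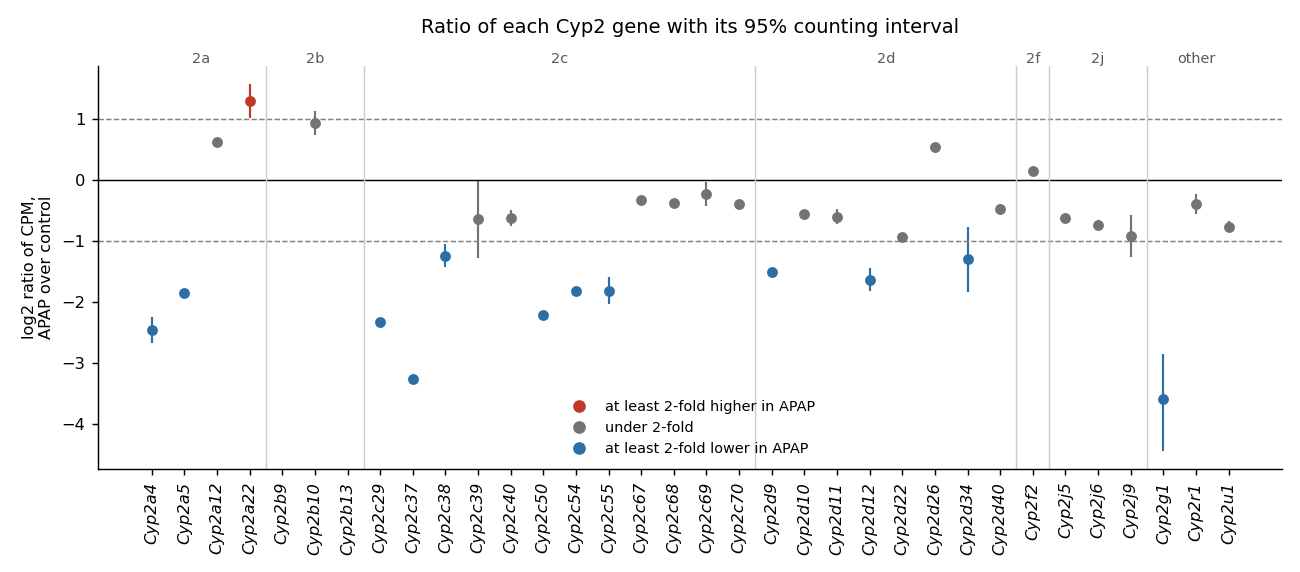
Log2 ratio of CPM, APAP over control, for the 32 Cyp2 genes with at least 20 counts, with exact 95% counting intervals as bars and dashed lines at 2-fold in each direction. Of these genes 12 lie at least 2-fold lower, 1 at least 2-fold higher and 19 between, and the Cyp2a and Cyp2c genes are the most spread among the abundant subfamilies.

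Set side by side, the abundant Cyp2c and Cyp2d subfamilies changed places. Cyp2c genes held 27.9% of the Cyp2 counts in APAP and 47.5% in control, and Cyp2d genes 41.2% in APAP and 31.0% in control. There were 0.679 Cyp2c counts per Cyp2d count in APAP and 1.53 in control, a 2.26-fold smaller proportion (2.23 to 2.28). Cyp2a and Cyp2j kept nearly the same proportion to Cyp2d, 0.364 and 0.193 in APAP against 0.371 and 0.198 in control. Cyp2f2 per Cyp2d count was 0.169 in APAP and 0.100 in control, 1.68-fold larger (1.65 to 1.72). The Cyp2a and Cyp2d sums hide opposite members: the log2 ratios of members ran from -2.45 to 1.29 in Cyp2a and from -1.63 to 0.55 in Cyp2d, from -3.26 to -0.22 in Cyp2c, and only from -0.91 to -0.62 in Cyp2j. With 1 library per group none of these differences between subfamilies could be tested.

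Close paralogues share reads, which limits what single genes can tell. In the GENCODE M21 transcripts, the longest coding transcript of each member was cut into overlapping 75-base pieces, and the share of pieces also found in a transcript of another gene was taken, since the sources used here give no read length. It was highest for Cyp2c40 (57.1%), Cyp2c69 (43.2%), Cyp2c67 (36.01%) and Cyp2c68 (28.5%), which share with each other. It was 26.7% for Cyp2d10, 25.5% for Cyp2a5, 22.1% for Cyp2a4 and 21.9% for Cyp2d11. For Cyp2a4 most of it was shared with Cyp2a5, whose level was far higher, so the Cyp2a4 value is uncertain, as is that of Cyp2a22 (13.4%, all of it shared with Cyp2a12). Cyp2c37, Cyp2c50 and Cyp2c54 shared 13.8%, 17.8% and 14.1%, and Cyp2d9 16.7%. Cyp2c29 shared 0.527%, Cyp2d26 3.81%, and Cyp2c55, Cyp2c70, Cyp2f2, Cyp2r1 and the Cyp2j genes 0%. The sources used here do not say how the authors counted reads that match more than 1 gene. Leaving out the 8 members that shared at least 20% gave 10 lower and 1 higher, against 7.09% and 10.7% of all genes. The median log2 ratio of the members kept was -0.84.

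Among genes that work with the Cyp2 enzymes, of 13 genes for electron partners and haem, 1 was lower by the 2-fold rule and 0 were higher, with 7.09% lower and 10.7% higher among all genes. Their median log2 ratio was -0.11. The lower one was Cyb5b, an outer mitochondrial cytochrome b5, at 347 CPM in APAP and 707 CPM in control, 2.04-fold lower (2.005 to 2.08), and with scaling by total counts it no longer met the rule. By the mean of both libraries the most abundant were Pgrmc1, a haem-binding partner of P450 enzymes at 651 CPM in APAP and 1128 CPM in control, and Alas1, the rate-limiting enzyme of haem synthesis, at 632 CPM in APAP and 616 CPM in control. Por, the oxidoreductase itself, was named after its values were seen, and had 429 CPM in APAP and 358 CPM in control, a ratio of 1.198 (1.17 to 1.22). Of 17 listed genes for epoxide hydrolysis and other eicosanoid steps, 8 had at least 20 counts, 1 was lower and 0 were higher. That gene was Ephx2, the soluble hydrolase of the epoxides that Cyp2c and Cyp2j enzymes make, at 286 CPM in APAP and 735 CPM in control, 2.57-fold lower (2.52 to 2.61), while the xenobiotic hydrolase gene Ephx1 had 385 CPM in APAP and 544 CPM in control.

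Among factors linked to the control of Cyp2 genes in either direction, of 30 nuclear receptors and other factors with at least 20 counts, 5 were lower by the 2-fold rule and 1 was higher, against the same 7.09% and 10.7% of all genes. Their median log2 ratio was -0.39. With scaling by total counts 2 were lower and 3 higher, against 4.44% and 17.3% of all genes. Foxa1, Ppara and Tef then no longer met the rule, and Nr0b2 and Ppargc1a met it as higher. The clock output factor Dbp was 15.5-fold lower (13.3 to 18.2), at 2.99 CPM in APAP and 46.4 CPM in control, and its relative Tef was 2.29-fold lower (2.17 to 2.41). The labels give no hour of collection for either library. Onecut1 was 3.71-fold lower (3.29 to 4.20), and Foxa1 and Ppara were 2.21-fold and 2.03-fold lower. Stat3, the factor of the acute phase response, was 2.12-fold higher (2.04 to 2.19). The most abundant factors, Hnf4a and Rxra, had 728 and 450 CPM in APAP and 767 and 475 CPM in control. The xenobiotic receptors CAR and PXR, given after their values were seen, stood at 18.1 CPM in APAP and 28.1 CPM in control for Nr1i3 (CAR) and at 64.6 CPM in APAP and 56.5 CPM in control for Nr1i2 (PXR).

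Other lists moved in the same libraries, and their part in the Cyp2 values was not tested. For comparison, 7.09% of all genes were lower by the 2-fold rule and 10.7% were higher. Of 12 measured other P450 genes of drug metabolism, Cyp2e1 included, 7 were lower by the 2-fold rule and 1 was higher. Their median log2 ratio was -1.40. Among them Cyp3a16 was 5.73-fold lower (4.39 to 7.56), Cyp3a11 3.83-fold lower (3.80 to 3.86) and Cyp1a1 2.56-fold higher (2.11 to 3.11). Of 19 pericentral genes, which include Cyp2e1 and Cyp1a2, 14 were lower and 1 was higher, and of 17 periportal genes 6 were higher and 1 was lower, with median log2 ratios of -1.65 and 0.72. Of 15 genes typical of male liver 10 were lower and 0 were higher, and of 7 measured genes typical of female liver 6 were lower and 1 was higher. These 6 include Cyp3a16, Cyp3a41a, Cyp3a41b and Cyp3a44, which were also counted among the other P450 genes and had 37 to 315 counts per library. With scaling by total counts the lower genes numbered 6 among the other P450 genes, 12 among the pericentral, 1 among the periportal, 9 among the male and 5 among the female ones, and the higher genes 2, 1, 9, 0 and 1 in the same order. With that scaling 4.44% of all genes were lower and 17.3% were higher. Markers of other cells were scarce in both libraries. Summed levels of the macrophage list were 5.93 CPM in APAP and 0.0645 CPM in control, of the stellate cell list 11.0 CPM in APAP and 1.35 CPM in control, of the endothelial list 19.3 CPM in APAP and 18.8 CPM in control, and of the cholangiocyte list 51.6 CPM in APAP and 17.8 CPM in control. The endothelial sums hide opposite members: of 8 genes, Pecam1, Cdh5 and Lyve1 were higher by the 2-fold rule and Stab2 and Tie1 lower. With scaling by total counts 5 of these 8 were higher and 0 lower. The lymphocyte list summed to 0.104 CPM in APAP and 6.02 CPM in control, and the neutrophil list to 2 counts in APAP and 0 in control. Single genes made up most of the lymphocyte and macrophage sums. Ighm held all 6 lymphocyte counts in APAP and 277 of 280 in control. Cd68 held 287 of 341 macrophage counts in APAP and all 3 in control. Among defining markers Adgre1, Clec4f, Ptprc, Krt19, Krt7, Epcam, S100a8, S100a9 and Vwf had no row.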

How the data were processed

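The deposited table used here held raw counts per Ensembl gene for 2 libraries, which the authors had not normalized. A table of the same genes scaled by the authors was not used. The submitters' processing notes name HISAT2, Subread and the build mm39, with no versions. The sources used here give neither annotation nor strand setting. Symbols were found for 20679 of 20823 identifiers.

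Counts were scaled by TMM factors (edgeR 4.0.16, R 4.3.3) of 1.13 for APAP and 0.887 for control. A gene was called higher or lower if its ratio reached 2-fold, it had 20 or more counts over both libraries and its exact conditional Poisson 95% interval did not hold 1. Medians are of log2 ratios with a prior of 0.5 counts. Intervals of proportions between genes use the normal approximation on the log scale. Reads carried no molecular identifiers. Of counts from 1 to 20, 70.6% were even in APAP and 68.3% in control, and if the mates of a pair were counted as 2, the true intervals are wider. The steps were tested on simulated data. Python 3.11.15, numpy 2.4.6, scipy 1.17.1, pandas 2.3.3 and Biopython 1.88 did the rest.

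The members and the 16 lists were chosen with earlier results of these data known. Every member with a row is given, and of each list on enzymes and factors the 3 farthest genes in each direction that met the 2-fold rule and the 2 most abundant. Alternatives were 4 other scalings, including DESeq2 1.42.0 size factors, other minimum counts, other fold limits, halved counts, total-count scaling of the list calls (chosen after seeing the data), and members or groups of members left out.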

Additional observations from a re-analysis of the deposited data

How the results depend on the processing

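No called member changed direction under the 4 other scalings, but 1 subfamily sum did when its main gene was left out. Scaled by total counts, the number of higher members was 2, the median log2 ratio of members -0.34, and the log2 ratios of the sums -0.27 for Cyp2a, 1.30 for Cyp2b, -1.42 for Cyp2c, -0.25 for Cyp2d, 0.50 for Cyp2f, -0.29 for Cyp2j and -0.39 for the other genes. With totals that leave out the 18 genes above 1% of either library these values were 2, -0.34, -0.28, 1.30, -1.43, -0.25, 0.50, -0.29 and -0.40 in the same order. With DESeq2 size factors the median was -0.70 and the sums of Cyp2c and Cyp2d were -1.79 and -0.61, and totals without the Cyp2 members moved no value beyond its counting interval. Without its most abundant member the sum was 0.56 for Cyp2a (main value -0.62), -1.39 for Cyp2c (-1.77), -0.062 for Cyp2d (-0.59) and -0.74 for Cyp2j (-0.63). The median was -0.63 with no minimum count, -0.73 with at least 100 counts and, in an alternative chosen after seeing the data, -0.84 without the 8 members that share at least 20% of their 75-base pieces. A limit of 1.5-fold gave 3 higher and 19 lower members, and a limit of 3-fold gave 0 higher. Halving all counts for the interval left 12 members lower and 1 higher. An alternative based on protein identity was not run, as no protein sequences were used here. No paired analysis was possible because each group held 1 library. The spread among animals within a group is unknown.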

Other observations

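The table also held 13 rows named Cyp2 that were not among the listed members, and apart from Cyp2e1 their values are not given above. Cyp2c23, an arachidonic acid epoxygenase that lies apart from the main Cyp2c cluster, had 216 CPM in APAP and 301 CPM in control, 1.39-fold lower (1.36 to 1.43). Several pseudogenes carried counts. Cyp2a21-ps had 197 counts in APAP and 533 in control, 3.34-fold lower (2.84 to 3.96). Cyp2c53-ps, which shares 0.527% of the pieces of Cyp2c29, had 6 counts in APAP and 63 in control, 13.0-fold lower (5.64 to 36.7). Cyp2d37-ps had 1326 counts in APAP and 1591 in control, 1.48-fold lower (1.38 to 1.60), and Cyp2d41-ps had 418 counts in APAP and 208 in control, 1.63-fold higher (1.37 to 1.93). The counts do not tell how many of these reads came from the coding genes.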
